A study of Mus musculus with 6 samples.

Results

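Synaptonemal complex and meiotic axis genes were followed through maps of N6-methyladenosine (m6A), the most common internal base modification of mRNA, in mouse male germ cells. The genes were Sycp1, Sycp2, Sycp3, Syce1, Syce2, Syce3, Tex12, Hormad1, Stag3 and Smc1b, taken as every row of both peak tables that carried one of these 10 names. Of the 10, 9 had at least 1 m6A peak, among 14483 genes with a peak in either table. The ClpP comparison held 19 of their peaks on 9 genes, and the ClpX comparison held 9 peaks on 6 genes. Stag3, the meiotic stromal antigen subunit of cohesin, gave no row by that name and was not analysed here.

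The synaptonemal complex is a zipper-like protein structure that joins paired homologous chromosomes along their length in meiotic prophase. Each chromosome first folds onto a proteinaceous axis built from meiotic cohesins, HORMA-domain proteins and the lateral element proteins SYCP2 and SYCP3. SYCP1 then spans the gap between both axes as the transverse filament, and the central element proteins SYCE1, SYCE2, SYCE3 and TEX12 hold opposing SYCP1 molecules together at the midline. In male mice, loss of the structural proteins of this machine arrests spermatocytes and causes infertility.

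In m6A-seq an antibody captures methylated RNA fragments (IP library), which are compared with RNA before capture (input library). The groups were conditional knockout (cKO) ClpP, conditional knockout ClpX and WT spermatocytes of postnatal day 35 (1 IP library and 1 input library for each genotype, 6 in all). ClpP and ClpX, the protease and unfoldase subunits of the ClpXP complex of the mitochondrial matrix, had each been deleted in male germ cells with Stra8-Cre, a recombinase driven by a promoter active in differentiating spermatogonia. The study asked what loss of these proteins does to mitochondria and meiosis. With 1 library per group no value below carries a replicate error, and p-values compare libraries, not genotypes in general. Depth per library is unknown.

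All values are the authors' own. A log2 fold change above 0 is taken as higher m6A enrichment in the knockout than in WT, an order that rests only on how the tables are named, and every direction below turns round if the ratio runs the other way. A peak is called if its difference had an adjusted p below 0.05 by the authors' calculation. Because enrichment divides IP by input, it says nothing of how much of each mRNA the cells held, and in bulk RNA a different mix of cells cannot be told apart from a change within cells. Coordinates are on GRCm38 (mm10), and gene spans are those of RefSeq for GRCm38.p6.

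In ClpP cKO, 8 of the 19 peaks were called, all of them higher, on Sycp2, Smc1b, Syce2 and Tex12. The authors' deposited table called 19.6% of all 24127 peaks, 6.74% higher and 12.8% lower. The 8 peaks had log2 fold changes of 1.37 to 3.18 in the authors' deposited table, and 4 of them lay on Sycp2 and 2 on Smc1b, so they are not independent. Counted by gene, 4 of 9 had a peak called higher, against 10.7% of all 13334 genes. The median log2 fold change of the 19 peaks was 1.37 in the authors' deposited table, while that of all peaks was -0.03. Of the 19 peaks 18 had a value above 0, as did 47.7% of all peaks. How the authors found peaks is not given here, and a peak found only in libraries where it is high counts as higher by selection. Of the 19 peaks 12 had no partner among the ClpX peaks. How far such selection shaped the counts and medians, here and in ClpX cKO, was not tested.

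In ClpX cKO, 4 of the 9 peaks were called, again all higher, and here on Sycp1, Syce1, Syce2 and Syce3. The authors' deposited table called 20.1% of all 23681 peaks in this comparison, 15.1% higher and 5.0% lower. By gene, 4 of 6 had a peak called higher, against 22.2% of all 13085 genes. The median log2 fold change of the 9 peaks was 0.84 in the authors' deposited table, beside 0.24 over all peaks. Syce2 was the only gene of the 10 called in both comparisons, at different sites. Both comparisons share the WT libraries, so a feature of those libraries would appear in both.

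**Figure D1:**
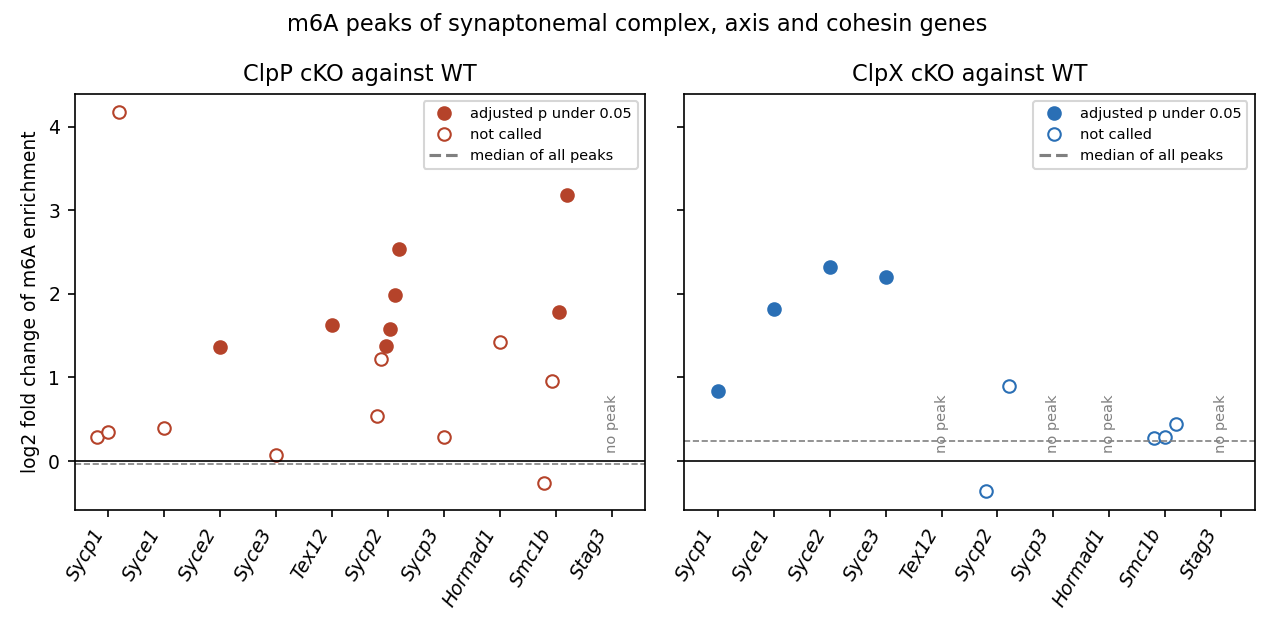
Log2 fold change of m6A enrichment (y axis) of each peak of the 10 genes (x axis) in ClpP cKO against WT (left) and ClpX cKO against WT (right). Each point is 1 peak, filled for an adjusted p under 0.05, and the dashed line is the median of all peaks of the table. The filled points sit on Sycp2, Smc1b, Syce2 and Tex12 on the left and on Sycp1, Syce1, Syce2 and Syce3 on the right, all above 0.

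Among genes of the central region, the central element genes Syce1, Syce2 and Syce3 were called higher in ClpX cKO at 1.82 to 2.32 on the log2 scale in the authors' deposited table. Syce3 (ENSMUSG00000078938), whose product links SYCP1 to the central element, had a peak at the 3′ end of its gene in both comparisons (chromosome 15, minus strand, gene span 89390174 to 89410503). In ClpX cKO that peak ran from 89390174 to 89397351 in 2 blocks, at 2.2 (4.59-fold, adjusted p 1.58e-22) on the log2 scale in the authors' deposited table. In ClpP cKO it covered 89390203 to 89390377 as 1 block, at 0.08 on the log2 scale (adjusted p 0.553) in the authors' deposited table. Its enrichment over input was 2.30-fold in the ClpX comparison and 1.35-fold, the weakest of the 19 peaks, in the ClpP comparison.

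Syce1 (ENSMUSG00000025480), whose product is the central element partner of SIX6OS1, carried different peaks in the 2 tables (chromosome 7, minus strand, gene span 140777229 to 140787854). The ClpX peak lay 357 bases from the 3′ end, at 140777586 to 140777919, and was higher by call, at 1.82 (3.53-fold, adjusted p 2.51e-18 in the authors' deposited table). It was also the least enriched of the 9 ClpX peaks, at 1.55-fold over input. The ClpP peak ran through 7 blocks from 140779368 to 140787852, at 0.40 on the log2 scale (adjusted p 0.0912) in the authors' deposited table, the lowest adjusted p among the uncalled peaks.

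That ClpP peak of Syce1 was the only peak of the 10 genes to reach the start of its transcript, covering 48 of the first 50 transcribed bases in RefSeq's GRCm38.p6 annotation. The stretch from base 21 to base 50 after the start, chr7:140787805-140787834 on the minus strand, lies wholly under it and is shown because it is the one stretch under a peak of these genes whose letters were at hand, with its first ATG in capitals.
Syce1 start: agctgaggaagtggagcagtATGgccacca
The letters GGAC, the core of the usual m6A consensus, were searched on the transcribed strand only and do not occur in those 50 bases. Of 32851 such first 50-base windows of RefSeq genes 18.9% hold them. The sequences under the other peaks were not used here.

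Syce2 (ENSMUSG00000003824), which with TEX12 forms the fibrous backbone of the central element, was called higher in both knockouts but at separate places (chromosome 8, plus strand, gene span 84872111 to 84887446). The ClpP peak at 84885958 to 84886107, toward the 3′ end, had a log2 fold change of 1.37 (2.58-fold, adjusted p 0.0195) in the authors' deposited table. The ClpX peak joined blocks from 84872712 to 84883489, nearer the 5′ end, at 2.32 (4.99-fold, adjusted p 3.98e-06) in the authors' deposited table. Neither site had a partner peak in the other table. Tex12 (ENSMUSG00000032065, chromosome 9, minus strand, gene span 50557148 to 50561268) had a peak in the ClpP comparison alone, at 50557326 to 50558408, called higher at 1.63 (3.10-fold, adjusted p 0.00251) in the authors' deposited table.

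Sycp1 (ENSMUSG00000027855), the transverse filament gene, had a peak of 7 blocks in both comparisons, at 102833877 to 102854185 in the ClpP table (chromosome 3, minus strand, gene span 102818499 to 102936100). At this site the log2 fold change was 0.84 in ClpX cKO (1.79-fold), where the authors' deposited table gives an adjusted p of 0.0437, and 0.35 in ClpP cKO, with 0.327. The ClpX value was the smallest of all called peaks of the 10 genes and the nearest to the threshold. The ClpP table held a further pair of Sycp1 peaks toward the 5′ end. The one at 102895858 to 102898859 had the largest log2 fold change of all 19, 4.17, yet was not called. It is 121 bases long in all, the shortest of the 19, and the authors' deposited table gives it an adjusted p of 0.281. The other, at 102915180 to 102915882, stood at 0.29 (adjusted p 0.587) in the authors' deposited table. A transcribed pseudogene, Sycp1-ps1 on chromosome 7, had 2 peaks in the ClpP comparison, both called higher, at 1.33 and 1.68 in the authors' deposited table. Its 3 ClpX peaks, at 0.23 to 0.43, were not called. The sources used here do not say how reads were divided between Sycp1 and this copy.

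Of Sycp2, Sycp3 and Hormad1, Sycp2 alone had called peaks, 4 in ClpP cKO and 0 in ClpX cKO. SYCP2 binds SYCP3 and links the chromosome axis to the rest of the complex. The gene (ENSMUSG00000060445, chromosome 2, minus strand, 178345295 to 178407776) had 6 peaks in ClpP cKO, all above 0, and 4 of them were called. From 5′ to 3′, the peak at 178381860 to 178383466 was called higher at 1.99 (3.97-fold, adjusted p 0.00347) and that at 178379400 to 178380915 at 1.38 (2.60-fold, adjusted p 0.0263) in the authors' deposited table. The strongest followed at 178369374 to 178374953, at 2.54 (5.82-fold, adjusted p 6.31e-16) in the authors' deposited table, which placed it at rank 20 by p among the 1626 peaks called higher.

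The next Sycp2 peak, at 178356521 to 178363438, was the most enriched over input of all 19, at 9.09-fold, and stood at 0.54 (adjusted p 0.321) in the authors' deposited table. It was followed by a peak called higher at 1.58 (178350862 to 178355055, 2.99-fold, adjusted p 1.66e-05) and by one near the 3′ end at 1.22 that was not called (178346192 to 178346402, adjusted p 0.269) in the authors' deposited table. At least 4 peaks called higher were found on 10 genes of the ClpP table, Sycp2 among them. Of the 241 genes with 6 or more peaks 5 had as many. In ClpX cKO Sycp2 had 2 peaks, and neither was called. The one near the 3′ end (178346282 to 178346402) stood at 0.89 (adjusted p 0.547) and the other (178356581 to 178362984) at -0.36 (adjusted p 0.543) in the authors' deposited table.

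Sycp3 and Hormad1 were measured in the ClpP comparison alone, with 1 peak each, and neither was called. Sycp3 (ENSMUSG00000020059), the main structural protein of the lateral element, had 0.29 at 88472707 to 88472942 on chromosome 10 (plus strand, gene span 88459587 to 88473236), where the authors' deposited table gives an adjusted p of 0.571. That peak shares 227 bases with a peak of Chpt1 on the opposite strand (0.58 in the authors' deposited table), and whether reads were counted by strand was not stated, so reads of either gene may lie in it. Hormad1 (ENSMUSG00000028109), a HORMA-domain protein of unsynapsed axes that acts in synapsis surveillance, had 1.42 at 95578205 to 95580058 on chromosome 3 (plus strand, gene span 95559677 to 95587863), where the authors' deposited table gives an adjusted p of 0.293. The tables describe the predicted genes Gm15529 and Gm7167 as resembling Hormad1. They had log2 fold changes of 0.49 and -0.68 in ClpP cKO and 0.45 and -0.61 in ClpX cKO in the authors' deposited table, none of them called.

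Smc1b (ENSMUSG00000022432) encodes the meiotic SMC1 subunit of cohesin, which pairs with SMC3 in the rings that hold sister chromatids and build the axis. Its 4 ClpP peaks differed widely along the gene (chromosome 15, minus strand, 85064689 to 85131957). The 5′-most, 85114692 to 85127510, was called higher at 1.78 (3.43-fold, adjusted p 1.17e-05) in the authors' deposited table. The peak at 85097596 to 85110791 had 0.96 and was not called (adjusted p 0.131), while that at 85090939 to 85097536 had 3.18 (9.06-fold, adjusted p 3.98e-06) in the authors' deposited table, the largest of the called values. The peak that ended 60 bases from the 3′ end, 85064749 to 85066282, stood at -0.26 (adjusted p 0.482) in the authors' deposited table and was the only one of the 19 below 0. In ClpX cKO the 3 Smc1b peaks lay close together in value and none was called. From 5′ to 3′ they stood at 0.44 (85114722 to 85121649), 0.28 (85097900 to 85106994) and 0.29 (85064839 to 85066252) in the authors' deposited table.

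**Figure D2:**
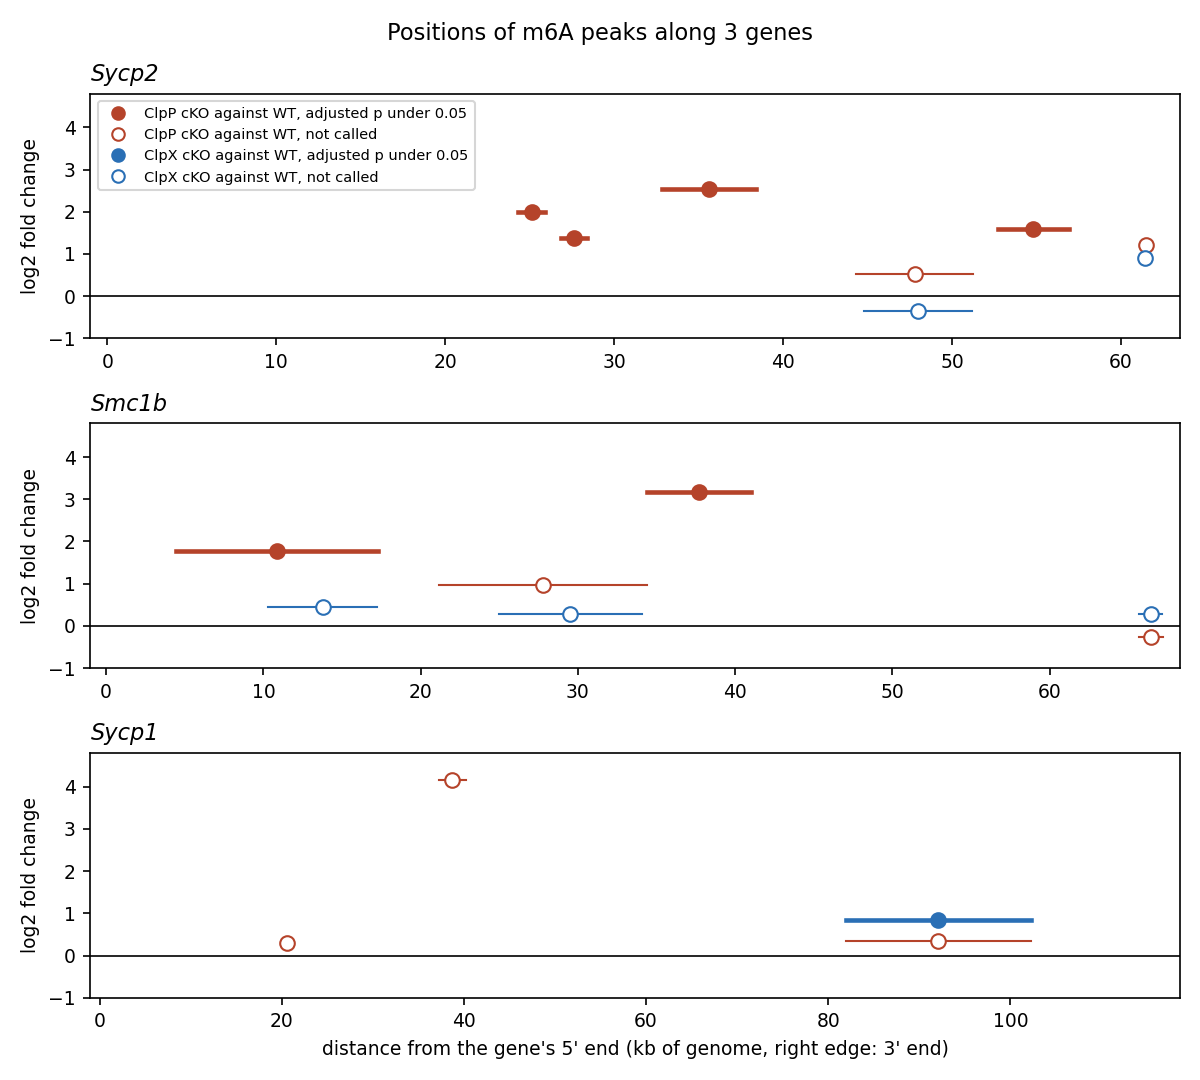
Log2 fold change of m6A enrichment (y axis) of the peaks of Sycp2, Smc1b and Sycp1, drawn as lines from their first to their last base against distance from the 5′ end of the gene in kb of genome (x axis), with a point at the middle. Points are filled where the authors' adjusted p was under 0.05. The ClpP peaks called higher on Sycp2 and Smc1b lie in the body of the genes, and the Smc1b peak at the 3′ end lies at -0.26 in ClpP cKO and 0.29 in ClpX cKO.

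Sites measured in both comparisons were paired by shared bases on the same strand, which joined 7 sites on Sycp1, Sycp2, Syce3 and Smc1b. Thus 36.8% of the 19 ClpP peaks and 77.8% of the 9 ClpX peaks had a partner, against 77.5% of all ClpP and 79.0% of all ClpX peaks. None of the 7 sites was called in both comparisons. Of the 8 called ClpP peaks only 1 had a partner. It was the 5′-most on Smc1b, at 1.78 in ClpP cKO and 0.44 in ClpX cKO in the authors' deposited table. The called ClpX peaks with a partner were those of Syce3 and Sycp1 described above, while those of Syce1 and Syce2 had none. At the most enriched Sycp2 site the authors' deposited table gave 0.54 in ClpP cKO and -0.36 in ClpX cKO, and at the 3′ end of Smc1b -0.26 and 0.29. Whether any site differs between the knockouts was not tested, and a site without a row was not necessarily free of m6A.

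**Figure D3:**
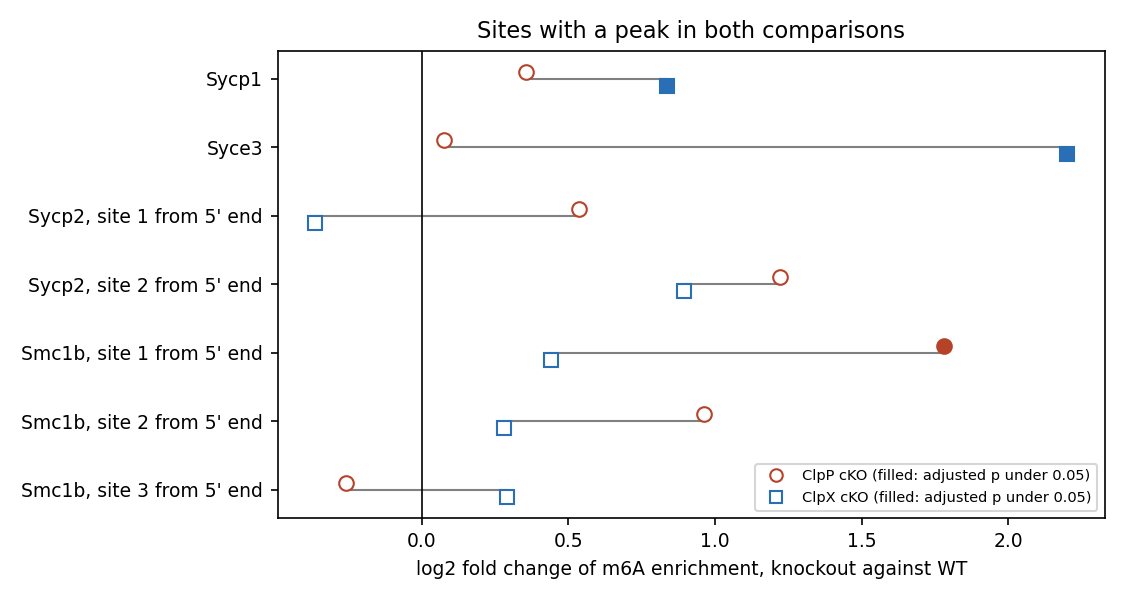
Log2 fold change against WT (x axis) in ClpP cKO (circles) and ClpX cKO (squares) at the 7 sites with a peak in both comparisons (rows), filled where the authors' adjusted p was under 0.05. The gap is widest for Syce3, at 0.08 in ClpP cKO and 2.2 in ClpX cKO, and no site is filled in both.

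The peaks of these genes were often built from several blocks along the transcript. In the ClpP comparison 15 of 19 had 2 or more blocks and 10 had 3 or more, against 29.7% and 8.59% of all peaks. The ClpX comparison gave 8 of 9 and 3 of 9, against 27.5% and 6.60%. Among all ClpP peaks of 3 or more blocks 17.0% were called higher, compared with 4.92% of those with 1 block. Of the 10 such peaks on the genes described here 6 were called higher. Near the 3′ end, within 1000 bases of the RefSeq gene end, lay 5 of the 19 ClpP peaks, against 31.7% of all peaks placed on a gene. Of the 8 called ClpP peaks 1 lay there, that of Tex12, against 34.7% of all ClpP peaks called higher. In the ClpX comparison 4 of the 9 peaks did, against 30.5% of all, among them 2 of the 4 called peaks, those of Syce1 and Syce3, against 39.0% of all ClpX peaks called higher.

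They were also weakly enriched. The median fold enrichment of IP over input was 3.71 for the 19 ClpP peaks and 3.30 for the 9 ClpX peaks in the authors' deposited table, beside 8.23 and 8.90 over all peaks. All peaks were divided into 4 parts of about equal size by enrichment. In the ClpX part with the lowest enrichment, 1.12 to 4.38-fold, 30.8% were called higher, and in that with the highest 3.63%. The 3 central element peaks called in ClpX cKO were all in the lowest part, whose median log2 fold change was 0.75. The corresponding ClpP shares were 14.4% and 2.77%, and 6 of the 11 ClpP peaks in its lowest part were called higher. Among all ClpP peaks with 3 or more blocks and an enrichment within the range of the 19, 23.1% were called higher. With any number of blocks, 9.91% of ClpP peaks in that range were called higher, with a median log2 fold change of 0.03. Of all ClpX peaks within the range of the 9, 22.8% were called higher, with a median of 0.515. The part of enrichment and block number in the values of these genes was not tested.

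**Figure D4:**
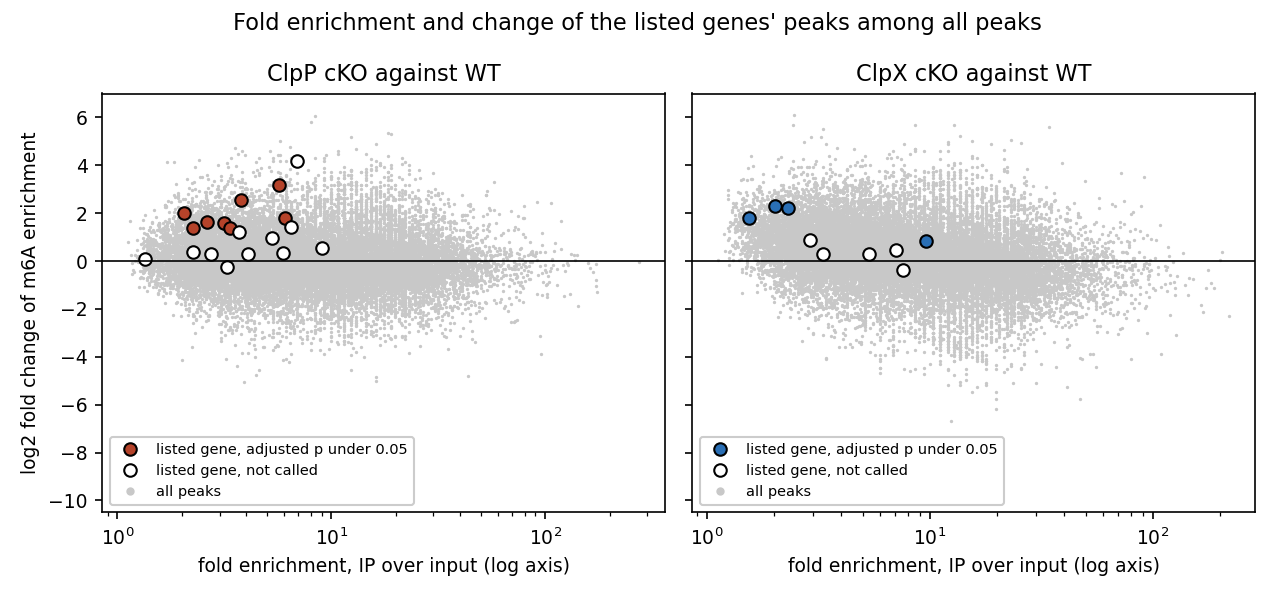
Log2 fold change of m6A enrichment (y axis) against fold enrichment of IP over input (x axis, log scale) in ClpP cKO against WT (left) and ClpX cKO against WT (right). Grey points are all peaks, and circles are peaks of the 10 genes, filled where the authors' adjusted p was under 0.05. The circles lie in the left part of the cloud, at 1.35 to 9.09-fold in the ClpP and 1.55 to 9.64-fold in the ClpX comparison.

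Other cohesin genes showed calls both ways. In ClpP cKO 12 of the 42 peaks on 17 of 22 listed genes were called higher and 5 lower. Over all ClpP peaks 6.74% were called higher and 12.8% lower. The median of all 42 was 0.62 on the log2 scale in the authors' deposited table, beside -0.03 over all peaks. The cohesin gene Smc3, the partner of SMC1 proteins in every cohesin ring, had 4 of its 7 peaks called higher, at 1.43 to 3.50 in the authors' deposited table. Sgo1, the shugoshin that shields centromeric cohesin, was called higher at 3.09 and 1.74, as were the cohesin subunit gene Stag1 at 2.66 and the acetyltransferase gene Esco1 at 1.04 in the authors' deposited table. The cohesin-associated factors Pds5a, at 0.80 and 1.25, and Pds5b, at 1.15, were called higher as well in the authors' deposited table, the second Pds5a peak sharing bases with a peak of another gene. Called lower were both called peaks of the separase gene Espl1, at -0.64 and -1.01, the loader subunit gene Mau2 at -0.996 and Cdca5, which encodes sororin, at -0.58 in the authors' deposited table. The release factor gene Wapl had 1 peak called lower at -0.71 and 1 called higher, with 1.42 on the log2 scale in the authors' deposited table. Of the meiotic kleisins, Rad21l had an uncalled peak at 2.17 in ClpP cKO and Rec8 one at 0.10 in ClpX cKO in the authors' deposited table.

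In ClpX cKO 5 of the 35 peaks on 15 of these cohesin genes were called higher and 4 lower. Over all ClpX peaks 15.1% were called higher and 5.0% lower. The median of the 35 was 0.53 in the authors' deposited table, beside 0.24 over all peaks. Pds5b at 3.42, the kleisin gene Rad21 at 1.03, Cdca5 at 1.0 and 2 Espl1 peaks at 1.06 and 1.31 were the calls higher than WT in the authors' deposited table. The Cdca5 peak starts at the same base, 6086573, as the one called lower in ClpP cKO at -0.58. Whether the knockouts differ there was not tested. A further Espl1 peak at -2.11, Esco1 at -2.82, the loader gene Nipbl at -1.08 and Wapl at -0.60 were called lower in the authors' deposited table. None of the 3 Smc3 peaks was called, at -0.27 to 0.98 in the authors' deposited table.

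Genes that act with the synaptonemal complex and axis had 19 peaks on 10 of 17 listed genes in ClpP cKO, of which 1 was called higher and 4 lower, 3 of the 4 on Hspa2 alone. Over all peaks of that table, too, lower calls outnumbered higher ones (12.8% and 6.74%). Their ClpP median was -0.07 in the authors' deposited table. The peak called higher belonged to Ccnb1ip1 (HEI10, a crossover factor), at 2.14, and those called lower to Ccdc36 (IHO1, an axis-bound factor for double-strand break formation), at -0.62, and to Hspa2, at -0.94, -0.26 and -0.25 in the authors' deposited table. Hspa2 is a germ-cell chaperone required for disassembly of the complex. With a log2 fold change of 1 or more in size also required, the Ccnb1ip1 call alone was left. The balance thus turned on 1 of 19 peaks, and the share of all peaks called at that size is not given here. In ClpX cKO 3 of 13 peaks were called higher and 1 lower, beside 15.1% and 5.0% of all ClpX peaks. The median of the 13 stood at 0.22 in the authors' deposited table, near the 0.24 of all peaks. Hspa2 at 0.997 and 0.27 and Ankrd31 (another break-formation factor) at 0.53 were called higher, and Ccdc36 again lower at -0.90 in the authors' deposited table. These Hspa2 peaks overlap those called lower in ClpP cKO at -0.26 and -0.25, and the difference between the knockouts was not tested.

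Among genes that attach telomeres to the nuclear envelope for pairing, 3 of 11 peaks were called in ClpP cKO and 2 of 11 in ClpX cKO, beside 19.6% and 20.1% of all peaks. Sun1, the inner-membrane anchor, was called higher in both knockouts, at 0.67 in ClpP cKO and 0.74 in ClpX cKO in the authors' deposited table. Ccdc155 (KASH5, its outer-membrane partner) was called lower in ClpP cKO at -1.28 and higher in ClpX cKO, at another site, at 1.37 in the authors' deposited table. Spdya, an activator of CDK2 at telomeres, was called lower in ClpP cKO at -0.61 in the authors' deposited table. The medians of the 11 peaks were 0.50 in ClpP cKO and 0.04 in ClpX cKO in the authors' deposited table. Those of all peaks were -0.03 and 0.24.

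**Figure D5:**
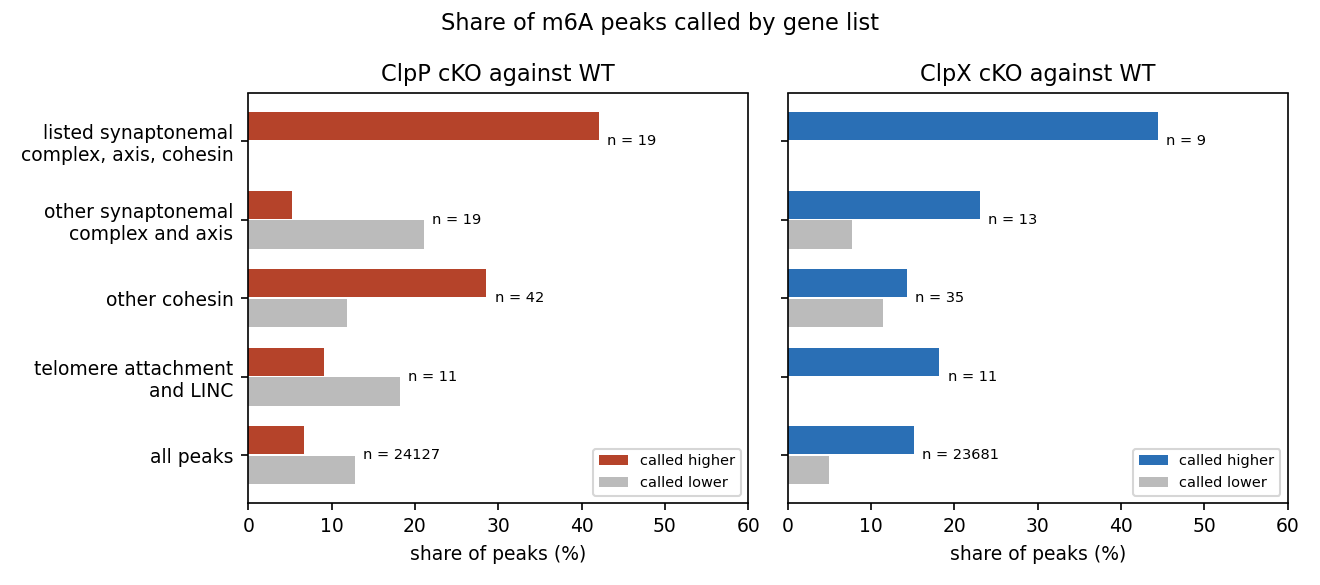
Share of peaks called higher (coloured bars) and lower (grey bars), in percent (x axis), for the 10 listed genes, the further gene lists and all peaks (rows) in ClpP cKO against WT (left) and ClpX cKO against WT (right), with the number of peaks beside each. In the top row 8 of 19 and 4 of 9 peaks were called higher and none lower.

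Peaks on marker genes were looked up for the labelled cell type. Of 8 spermatocyte markers 4 had a peak in the ClpP and 5 in the ClpX table, among them Spo11 and Piwil1 in both, and of 8 spermatid markers 7 and 8 did. Of the spermatocyte marker peaks 0 of 4 were called in ClpP cKO, while in ClpX cKO 2 of 6 were called higher, both on Ybx2 at 1.66 and 1.67, and 1 lower, on Mlh3 at -0.80 in the authors' deposited table. For 10 markers of other somatic testis cells the numbers called higher were 3 of 8 peaks in ClpP cKO and 5 of 12 in ClpX cKO, 0 lower in either, with medians of 0.61 and 1.96 in the authors' deposited table. For the 6 markers of Sertoli cells the calls were 1 higher and 1 lower of 10 peaks in ClpP cKO, and 3 and 1 of 9 in ClpX cKO. Spermatid markers had 2 higher and 3 lower of 10 peaks in ClpP cKO, and 6 and 0 of 11 in ClpX cKO. The 8 spermatogonial markers had 1 and 1 of 11 peaks in ClpP cKO, and 5 and 0 of 8 in ClpX cKO. As a baseline, the full ClpP table held 6.74% higher and 12.8% lower calls, with a median log2 fold change of -0.03. The full ClpX table held 15.1% higher and 5.0% lower calls, with a median of 0.24. The levels of these markers were not used here, and their part in the values above was not tested. The deleted genes gave no firm check of the labels: Clpp had no peak in the ClpP table, and the Clpx peak in the ClpX table stood at 0.55 (adjusted p 0.608 in the authors' deposited table).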

How the data were processed

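The data were 2 tables of the authors' own comparisons of m6A-seq libraries, each of 1 knockout (ClpP cKO or ClpX cKO) against WT, with coordinates on GRCm38 (mm10), a build taken from the submitters' processing notes. For the aligner, peak caller and depth scaling, the labels hold no entry (not given in the sources used here). Each row is, per the file headers, a peak with its blocks, a p-value of the peak, scores that are the log10 of p and adjusted p, a fold enrichment of IP over input (a ratio), and the log2 fold change between genotypes. The authors deposited these values, and no read counts were used. Adjusted p-values here were computed as 10 to the power of the deposited scores, and starts were made 1-based.

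Calls used the authors' adjusted p under 0.05 across all peaks of a table. Sites of both tables were paired by at least 1 shared base on the same strand, keeping best mutual pairs. The adjustment code was tested on simulated p-values, and the pairing code on deposited peaks set against slightly shifted copies of themselves. Python 3.11.15 and pandas 2.3.3 were used. Named genes were all 10 members with every peak, and the called peaks of the further lists. Members, lists and alternatives were chosen with earlier results of these data known. Alternatives were a stricter adjusted p, a minimum fold change or enrichment, median centring, a new adjustment, leaving out overlapping peaks, and 1 peak per gene (that of lowest p). Groups were taken from the sample titles.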

Additional observations from a re-analysis of the deposited data

Results flagged for a closer look

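At 2 of the 7 sites measured in both comparisons the log2 fold changes of the 2 knockouts had opposite signs. On Sycp2 the site starting at 178356521 (ClpP) and 178356581 (ClpX) had 0.535 in ClpP cKO and -0.363 in ClpX cKO in the authors' deposited table. On Smc1b the site starting at 85064749 (ClpP) and 85064839 (ClpX) had -0.257 in ClpP cKO and 0.29 in ClpX cKO in the authors' deposited table. None of the 4 values was called, and the difference between the knockouts was not tested.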

How the results depend on the processing

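Each result rests on 1 library per group and on peaks the authors called, so its limits lie there. No paired analysis was possible because no group holds a replicate. No called peak of the 10 genes could change direction when the table's median log2 fold change was subtracted. The smallest called value was 0.84, and the medians of all peaks were -0.03 for ClpP and 0.24 for ClpX. A new Benjamini-Hochberg adjustment kept all of these calls, but it reused the authors' p-values and so is not an independent check. At an adjusted p under 0.01 the calls of Syce2 and of the Sycp2 peak at 1.38 in ClpP cKO and of Sycp1 in ClpX cKO were lost, leaving 6 and 3. Of the named peaks outside the 10 genes 9 of 40 lost their call at that threshold. When a log2 fold change of 1 or more in size was also required, Sycp1 in ClpX cKO and 17 of the 40 lost theirs. With 1 peak per gene, that of lowest p, the count called equals the number of genes with any call, so it is no check. In ClpP cKO it was 4 of the 9 genes with a peak among the 10. It was 3 of 10 for the other synaptonemal complex and axis genes and 10 of 17 for the other cohesin genes in ClpP cKO. At an adjusted p under 0.01 the last 2 lists had 3 and 11 calls in ClpP cKO. Where calls also needed a log2 fold change of 1 or more in size, the other synaptonemal complex and axis genes had 1 call in ClpP cKO. It was higher, so that the balance turned on 1 peak. In ClpX cKO they had 0, and the telomere attachment genes had 1 in each knockout. Shares of all peaks called at these stricter settings are not given here. The median over the 9 ClpX peaks was 0.84, and became 0.598 with the table's median subtracted, 0.64 without peaks enriched under 2-fold and 1.328 with 1 peak per gene. The last value keeps each gene's peak of lowest p, which favours called peaks, so it does not show a stronger rise per gene. Requiring 50% overlap left 5 of the 7 paired sites.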
